A study of Mus musculus with 6 samples.

Results

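The miR-99 and miR-100 family was followed in short RNAs bound to Argonaute (Ago) proteins in mouse brain. Ago binds miRNAs and carries them to messenger RNAs inside the complex known as RISC, and the short RNAs found on it are R-sRNAs. The 4 members were mmu-miR-99a-5p, mmu-miR-99b-5p, mmu-miR-100-5p and mmu-miR-99b-3p, written without the species prefix below, the last being the strand opposite miR-99b-5p in its hairpin. Members were chosen by their levels in these same samples, so the differences between the groups in those levels are a description and were not tested. They were found by the mature miRNA name that the authors gave each sequence. This rule took 288 of the 109434 sequences in the table, of which 247 were above 0 in at least 1 sample, and 4 of the 782 miRNA names with a value above 0.

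The 6 samples fell into 2 groups of 3, WT and Tau tg. Per the study's methods, both were 3-month-old mice on the C57BL/6J background, and the Tau tg animals expressed a transgenic fragment of the human tau protein from the Thy 1.2 promoter. That promoter drives expression in neurons, while the lysed tissue held all of its cell types. The labels name hippocampus, and the deposited protocol names cortex and hippocampus combined. Ago proteins were pulled down with a peptide derived from GW182, a protein that binds Ago, and the RNA on them was sequenced. Levels are in RPM, which put the reads of each sequence on 1 scale for all samples by dividing by the depth of the sample, and no value in the table measures the transgene.

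The samples held 998248 to 6879551 reads, recovered from the size of 1 read on the RPM scale, with the fewest in WT 3 and the most in Tau tg 1. The family held 10142 reads in Tau tg 2 and 157990 in Tau tg 1. A list of 4 neuronal miRNAs summed to between 140317 and 158895 RPM in all samples. The 3 miRNAs listed for oligodendrocytes summed to 8442 to 13591 RPM in WT and 10627 to 13997 RPM in Tau tg. The 4 for choroid plexus summed to 3409.6 to 11290.5 RPM in WT and 3244 to 9496 RPM in Tau tg, and the 4 for blood vessels to 8191 to 14931 RPM and 11026 to 15397 RPM. Lists for immune cells with microglia (5 miRNAs, 1864 to 2768 RPM), red blood cells (474 to 1129.8 RPM) and hindbrain (3 miRNAs, 189.8 to 591 RPM) were lower. In the red blood cell list no value above 0 stood under the single name miR-486a-5p in all 6 samples. Some sequences carry joined names, so this does not show that the miRNA was absent. The ranges of the groups overlapped for each of the 7 lists, and their part in the results below was not tested.

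A miRNA is cut from a hairpin and 1 of its strands is kept by Ago, which then pairs the seed at the 5′ end of the miRNA with messenger RNAs. The miR-99 and miR-100 family is among the oldest of animal miRNA families. Its genes sit in clusters with a let-7 gene and a miR-125 gene, and its known targets include the kinase mTOR and the receptor of insulin-like growth factor 1. In these data each 6mer seed, read positions 2 to 7, has a viability, the percentage of cells that survived a short RNA with that seed, averaged by the authors over 3 mouse cell lines.

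The mature sequences show how little separates the members. They are RefSeq sequences on GRCm38.p6, written 5′ to 3′ with the seed, bases 2 to 8, in capitals. The first 3 share 1 seed, and the 2 strands below them share another:
miR-99a-5p: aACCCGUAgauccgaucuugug
miR-100-5p: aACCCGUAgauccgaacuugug
miR-99b-5p: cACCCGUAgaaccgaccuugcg
miR-99b-3p: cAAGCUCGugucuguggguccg
miR-99a-3p: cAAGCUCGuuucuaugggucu

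Positions in the family were counted from 1 at the first base of the RefSeq mature sequence. From miR-99a-5p to miR-100-5p there was 1 change over 22 bases, U16A. From miR-99a-5p to miR-99b-5p there were 4, A1C, U11A, U16C and U21C. No sequence named as a member of the 5p arm ended before position 16, so each one covered a base that tells miR-99a-5p from miR-100-5p. miR-99a-3p, the strand opposite miR-99a-5p, shares its seed with miR-99b-3p and differs from it by U10G, A14G and U21C over 21 bases.

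The genes lie on 3 chromosomes, each with a let-7 and a miR-125 gene on the same strand. miR-99a-5p maps to chr16:77598940-77598961 on the plus strand, in an intron of the noncoding host gene Mir99ahg and, on the other strand, of the coding gene Gm11146. Mirlet7c-1 starts 656 bases after its hairpin and Mir125b-2 lies 47278 bases away. miR-99b-5p maps to chr17:17830194-17830215 and miR-99b-3p to chr17:17830232-17830253, both on the plus strand in an intron of Spaca6, with Mirlet7e 98 bases and Mir125a 558 bases away. miR-100-5p maps to chr9:41531437-41531458 on the plus strand, in an intron of the noncoding genes 3110039I08Rik and Gm49317, with an exon of the noncoding gene Gm48742 on the other strand. Mirlet7a-2 lies 5211 bases and Mir125b-1 50421 bases from Mir100.

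mmu-miR-99a-5p was the most abundant member and ranked 20 among all miRNAs by mean level. WT 1, 2 and 3 held 14991, 9467 and 12333 RPM of it, and Tau tg 1, 2 and 3 held 16214, 1992 and 8253 RPM. Tau tg 1 was the highest of the 6 samples and Tau tg 2 the lowest by a wide gap, so the groups overlapped. WT had a mean of 12263 ± 2763 RPM and Tau tg one of 8819.8 ± 7128 RPM (SD, n = 3 each). The difference of Tau tg minus WT in log2(RPM + 1) was -0.90 ± 0.91 (SE), and without Tau tg 2 it was -0.06. In whole tissue, fewer cells of a type and less of an RNA per cell cannot be told apart.

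mmu-miR-100-5p, which differs from it at 1 base, ranked 32. Its levels were 4094, 8841 and 7684 RPM in WT and 4582, 5199 and 6499 RPM in Tau tg. The 3 Tau tg samples sat inside the WT range, whose lowest value was WT 1. The means were 6873 ± 2475 and 5427 ± 979 RPM (SD, n = 3 each), with a log2 difference of -0.28 ± 0.37 (SE), and -0.06 without WT 2.

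mmu-miR-99b-5p ranked 74, at 2426, 1469.7 and 993 RPM in WT and 1572, 1208 and 1788 RPM in Tau tg. Both the highest and the lowest value were WT samples. The group means were 1629.6 ± 730.2 and 1523 ± 293 RPM (SD, n = 3 each), with a log2 difference of -0.02 ± 0.41 (SE). Without WT 1 that difference was 0.32, and without WT 3 it was -0.33.

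Its opposite strand mmu-miR-99b-3p ranked 295, at 108, 80.6 and 33.0 RPM in WT and 112, 82.8 and 78.1 RPM in Tau tg. WT 3 was the low sample, with 36 reads of this strand. The group means were 73.8 ± 37.8 and 91.0 ± 18.3 RPM (SD, n = 3 each), with a log2 difference of 0.44 ± 0.53 (SE), and -0.05 without WT 3.

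**Figure D1:**
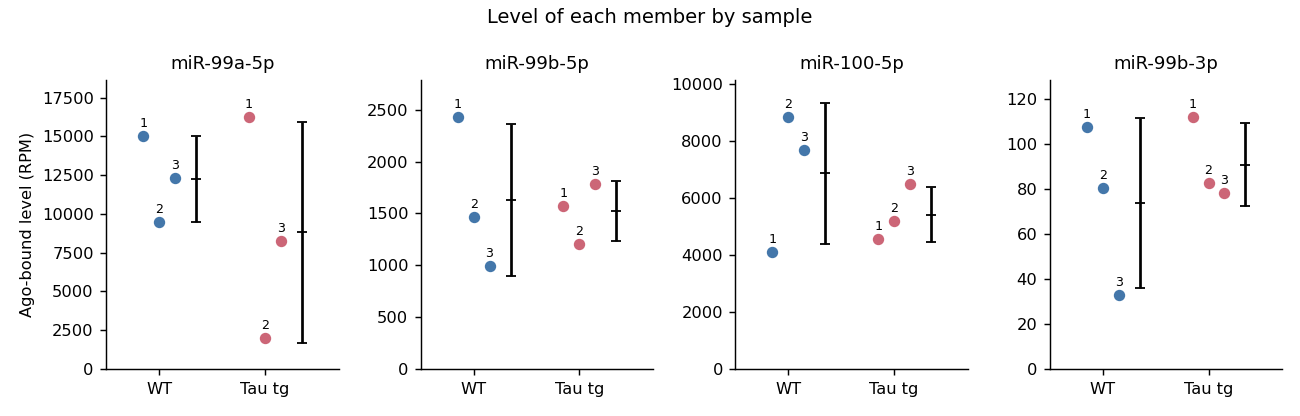
Level of each member in RPM (linear axes from 0, a different scale in each panel) in WT (blue) and Tau tg (red), with the replicate number above each point and the group mean ± SD (n = 3) in black. The groups overlap in all 4 panels, and the 1992 RPM of miR-99a-5p in Tau tg 2 stands far below its other 5 values.

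Summed over the 3 members of the 5p arm, WT was even, at 21511, 19778 and 21009 RPM. Tau tg held 22368, 8399 and 16539.8 RPM, so 1 Tau tg sample was the highest and the other 2 were below every WT sample. The log2 difference of the sum was -0.51 ± 0.42 (SE), and -0.11 without Tau tg 2. The 4 members together made 2.11% to 2.30% of all RPM in WT, and 2.30%, 0.880% and 1.72% in Tau tg 1, 2 and 3.

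Within that even WT sum the parts were uneven. In WT 1, 2 and 3, 69.7%, 47.9% and 58.7% of the 5p sum was miR-99a-5p, while its part was 72.5%, 23.7% and 49.9% in the Tau tg samples. The ratio of miR-99a-5p to miR-100-5p was 3.66, 1.07 and 1.61 in WT and 3.54, 0.383 and 1.27 in Tau tg. miR-99a-5p was thus the larger of the pair in 5 samples and the smaller only in Tau tg 2, while WT 1 and Tau tg 1 were alike. On the log2 scale this ratio had means of 0.88 ± 0.90 in WT and 0.26 ± 1.60 in Tau tg (SD, n = 3 each). All 3 strands have about the same length, so RPM can be set side by side, but ligation can favour 1 end sequence over another.

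In each sample, every miRNA with a mean of at least 100 RPM (276 of them) was set against the median of the other 5 samples. miR-99a-5p in Tau tg 2 was at -2.63 on this log2 scale, the second lowest of the 276, next to miR-429-3p at -2.66. The median of all 276 was -0.04 in that sample. In the same sample miR-100-5p was at -0.32 and miR-99b-5p at -0.38. In the other samples miR-99a-5p lay between -0.58 (Tau tg 3) and 0.78 (Tau tg 1). Tau tg 2 held 2382 reads of miR-99a-5p, so counting error is small beside this gap.

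**Figure D2:**
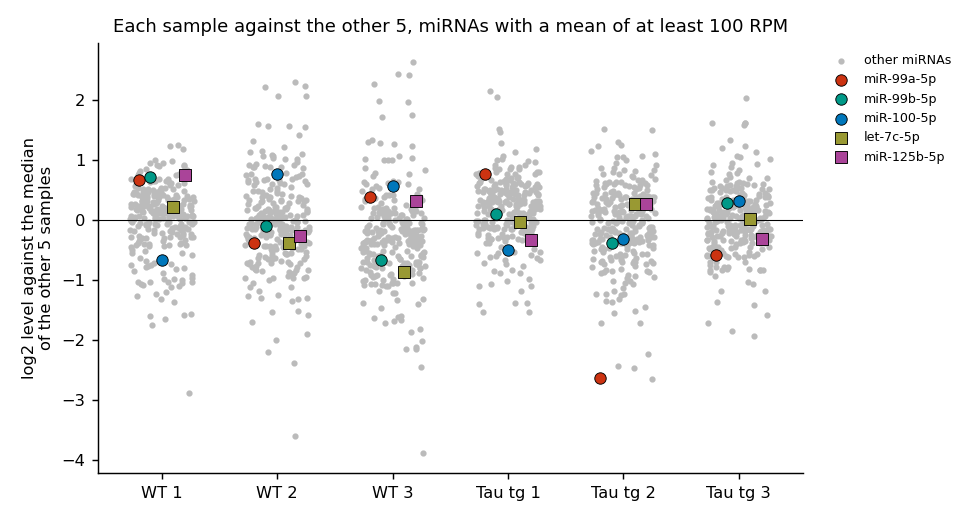
Log2 level of each miRNA with a mean of at least 100 RPM in 1 sample against the median of the other 5 (linear axis in log2 units). Members are coloured circles, 2 cluster partners of miR-99a-5p are coloured squares and the other miRNAs are grey. In Tau tg 2 miR-99a-5p lies at -2.63 while let-7c-5p and miR-125b-5p lie above 0.

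The low value ran through the sequences of miR-99a-5p. Of its 17 sequences whose mean reached 10 RPM, 15 were below the median of the other samples in Tau tg 2, and 12 were at the lowest level of the 6 samples there. The median sequence was at 0.137 times the median of the other 5. The highest was at 3.18 times. These sequences make up the total given above, so they are not separate evidence of its low value. The same counts over all sequences in Tau tg 2 were not made.

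The members of the clusters were next compared with each other. let-7c-5p, which is made from Mirlet7c-1 beside Mir99a and also from Mirlet7c-2 on another chromosome, was at 47912, 32148 and 22868 RPM in WT and 41215, 49885 and 41920.5 RPM in Tau tg. It was highest in Tau tg 2, where miR-99a-5p was lowest. miR-125b-5p, which is made from both Mir125b-2 and Mir125b-1, was at 23762 RPM in Tau tg 2, within its range of 18912 to 33327 RPM over the 6 samples. The ratio of miR-99a-5p to let-7c-5p was 0.313, 0.294 and 0.539 in WT and 0.393, 0.0399 and 0.197 in Tau tg, a range of 13.5 times.

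Over all 6 samples the other 2 clusters varied less, with ranges of 2.54 to 3.63 times. The wider range of miR-99a-5p to let-7c-5p came from Tau tg 2, as its ratio lay between 0.197 and 0.539 in the other samples. miR-99b-5p stood to let-7e-5p at 0.406, 0.369 and 0.276 in WT and 0.316, 0.160 and 0.308 in Tau tg, a range of 2.54 times. miR-100-5p stood to let-7a-5p, which also comes from other let-7a genes, at 0.184, 0.470 and 0.576 in WT and 0.232, 0.199 and 0.295 in Tau tg. The groups overlapped in all 6 ratios computed between a member and a partner.

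**Figure D3:**
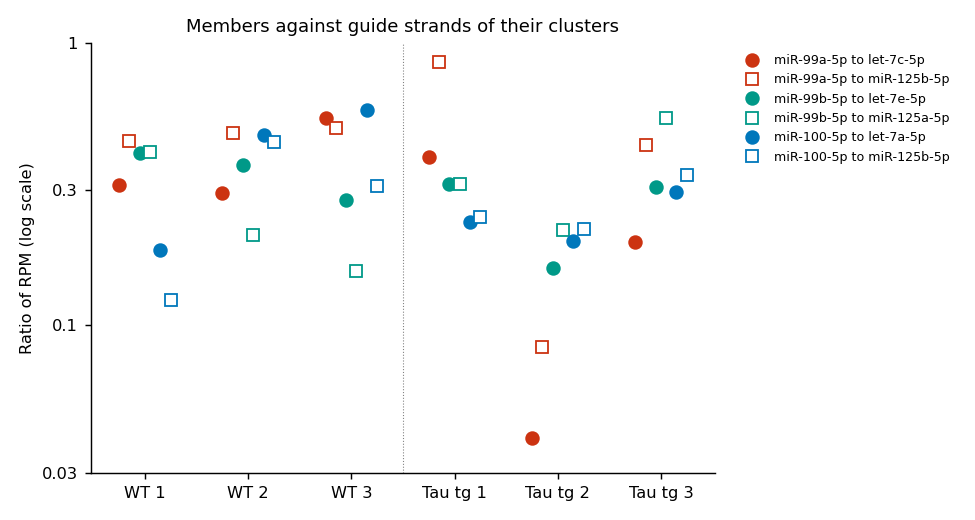
Ratio of the RPM of each member of the 5p arm to the let-7 (filled circles) and miR-125 (open squares) guide strands of its cluster, by sample, on a log axis. Both ratios of miR-99a-5p (red) are lowest in Tau tg 2, at 0.0399 and 0.0838.

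Of the 11 strands listed as cluster partners, the levels of 4 did not overlap between the groups. Over all 689 miRNAs tested, 6.53% were higher and 2.18% lower in Tau tg without overlap. miR-125a-5p, the partner of miR-99b, was lower, at 5907, 7030.1 and 6372 RPM in WT and 4975, 5559.8 and 3307 RPM in Tau tg. Its opposite strand miR-125a-3p was higher, at 34.7, 44.7 and 45.0 RPM in WT and 70.6, 55.2 and 55.2 RPM in Tau tg. The passenger strands let-7e-3p and let-7a-2-3p were also higher without overlap. Of these, let-7a-2-3p was near the floor, at 2.34, 1.36 and 0.917 RPM in WT and 7.83, 14.2 and 4.09 RPM in Tau tg. In WT 1, 2 and 3, 1 read was worth 0.468, 0.678 and 0.917 RPM. In limma over all 689 miRNAs, 0 of these 11 strands passed an unadjusted or adjusted p of 0.05, and the adjusted p of all 4 was 0.896.

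The strands opposite miR-99a-5p and miR-100-5p were scarce. miR-99a-3p was at 8.43, 69.8 and 46.8 RPM in WT and 94.2, 68.6 and 81.0 RPM in Tau tg. It was not low in Tau tg 2, where its partner strand was, and it was lowest in WT 1 with 18 reads. Its log2 difference was 1.36 ± 0.78 (SE, limma adjusted p = 0.896). miR-100-3p did not exceed 5.41 RPM in any sample. miR-99b kept more of both strands, with 22.5, 18.2 and 30.1 copies of the 5p to 1 of the 3p strand in WT and 14.0, 14.6 and 22.9 in Tau tg. On the log2 scale that ratio had means of 4.51 ± 0.35 and 4.05 ± 0.39 (SD, n = 3 each), a difference of -0.46. Both ratios are built from the levels that chose the members, so nothing was drawn from their exact permutation p-values, which count only in the adjustment over 15 measures given below.

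The miRNAs most like miR-99a-5p across the 6 samples were found by the SD of their log2 ratio to it. Over the 273 of the 276 miRNAs that are not members the median SD was 1.20. The smallest were miR-362-3p (0.39), let-7i-3p (0.49), miR-324-3p (0.50), miR-551b-3p (0.53) and miR-652-3p (0.63). Each of these 5 had its lowest level in Tau tg 2, such as 28.4 RPM of miR-362-3p against 105 to 282 RPM elsewhere. That follows largely from how they were picked, since miR-99a-5p itself was lowest by a wide gap in Tau tg 2. Set among these 273, miR-99b-5p would rank 67 by this measure, with an SD of 1.03, and miR-100-5p would rank 145, with an SD of 1.21.

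Each member was a set of sequences with different ends. The 3 most abundant reads of miR-99a-5p are shown because they carry most of the results on ends below, and the leading read with another 6mer seed of each 5p member because its later start changes the seed, with bases 2 to 8 in capitals:
miR-99a-5p, 1 base short: aACCCGUAgauccgaucuugu
miR-99a-5p, RefSeq end: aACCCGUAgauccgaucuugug
miR-99a-5p, 1 added A: aACCCGUAgauccgaucuuguga
miR-99a-5p, later start: aCCCGUAGauccgaucuugu
miR-100-5p, later start: aCCCGUAGauccgaacuugug
miR-99b-5p, later start: aCCCGUAGaaccgaccuugcg

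The read 1 base short was the leading form of miR-99a-5p, with 41.1% of its mean RPM over the 6 samples, and the RefSeq form gave 35.6%. The short read was at 6618, 4078 and 5443 RPM in WT and 6462, 595 and 2782 RPM in Tau tg. The RefSeq form was at 4724, 3515 and 3825 RPM in WT and 6519, 689 and 3269 RPM in Tau tg. The short read thus led in all 3 WT samples and the RefSeq form in all 3 Tau tg samples, though in Tau tg 1 the forms were nearly even. No count of such changes over other miRNAs was made to set beside it. The read with 1 added A was at 1434, 517 and 927 RPM in WT, against 883, 157 and 963 RPM in the Tau tg samples.

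For miR-100-5p and miR-99b-5p the RefSeq form led over the 6 samples, with 56.7% and 57.2% of the member. In miR-99b-5p it was at 1363, 648 and 637 RPM in WT, and the Tau tg samples held 1034, 683 and 1044 RPM. The form 1 base short was at 639, 684 and 118 RPM in WT, against 323, 251 and 461 RPM in Tau tg 1, 2 and 3. The short form exceeded the RefSeq form of miR-99b-5p in WT 2 only, and in WT 3 it was at its lowest.

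The share of miR-99a-5p that ended before the RefSeq 3′ end was 49.8%, 51.2% and 51.5% in WT and 46.8%, 41.2% and 40.3% in Tau tg. Every Tau tg sample was below every WT sample, and the low total of Tau tg 2 did not set it apart here. The means were 50.8% ± 0.921 and 42.7% ± 3.51 (SD, n = 3 each), a difference of -8.07 percentage points. The exact two-sided permutation p was 0.1, the smallest that 3 against 3 can give, and 0.75 after Benjamini-Hochberg adjustment over 15 measures. The shares of read ends here and below come from sequences of the chosen members. Their p-values are therefore a description, and nothing was drawn from them. Among the 241 of the 276 miRNAs that had a RefSeq mature sequence and were above 0 in all 6 samples, 5.39% had such a share lower in Tau tg without overlap and 2.9% higher, and the median difference was -0.482 percentage points.

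The same share overlapped between the groups in the other members. In miR-99b-5p it was 38.3%, 48.7% and 26.1% in WT and 26.6%, 35.7% and 30.7% in Tau tg (n = 3 each, exact permutation p of 0.5). In miR-100-5p it was 34.3%, 31.8% and 25.5% in WT and 26.1%, 39.0% and 31.9% in Tau tg (n = 3 each, exact permutation p of 0.7). The difference of miR-100-5p was 1.82 percentage points, with the sign opposite to that of miR-99a-5p, and the difference between the members was not tested.

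A later or earlier 5′ start moves the seed. Reads of miR-99a-5p that began at another base than the RefSeq sequence made 1.52%, 1.08% and 1.67% in WT and 1.76%, 2.52% and 2.33% in Tau tg. The groups did not overlap, and the difference was 0.779 percentage points (n = 3 each, exact two-sided permutation p of 0.1, and 0.75 after adjustment over the 15 measures). It depended on rare sequences. With only sequences whose mean reached 10 RPM, the difference was 0.404 percentage points and the groups overlapped. Over the 241 miRNAs, 6.22% were higher and 4.98% lower in Tau tg without overlap. In Tau tg 2 these reads began earlier (1.30% with the seed AACCCG, 0.546% with CCCGUA), while in Tau tg 3 they began later (0.0595% and 1.98%). The remaining 13 measures overlapped between the groups.

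The leading reads with the later start, shown above, have the 6mer seed CCCGUA. That of miR-99b-5p was at 1.87, 3.39 and 1.84 RPM in WT, and the Tau tg samples held 25.5, 13.4 and 11.5 RPM. All 3 Tau tg samples were above all 3 WT samples, at levels where 3 reads correspond to 1.41, 2.03 and 2.75 RPM in WT. All reads of miR-99b-5p with this seed made 0.637%, 0.369% and 0.370% of it in WT, as against 2.33%, 2.56% and 1.10% in the Tau tg samples. This seed was looked at after its values were seen and was not tested, and no count over all sequences was made to set beside it. The share of all reads of miR-99b-5p with a shifted start overlapped between the groups. That of miR-100-5p was at 29.0, 35.9 and 51.4 RPM in WT, and the Tau tg samples held 29.0, 23.4 and 42.1 RPM, with overlap. That of miR-99a-5p was at 53.9, 42.0 and 45.9 RPM in WT, and the Tau tg samples held 86.5, 0 and 67.5 RPM, with Tau tg 2 below every other sample.

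**Figure D4:**
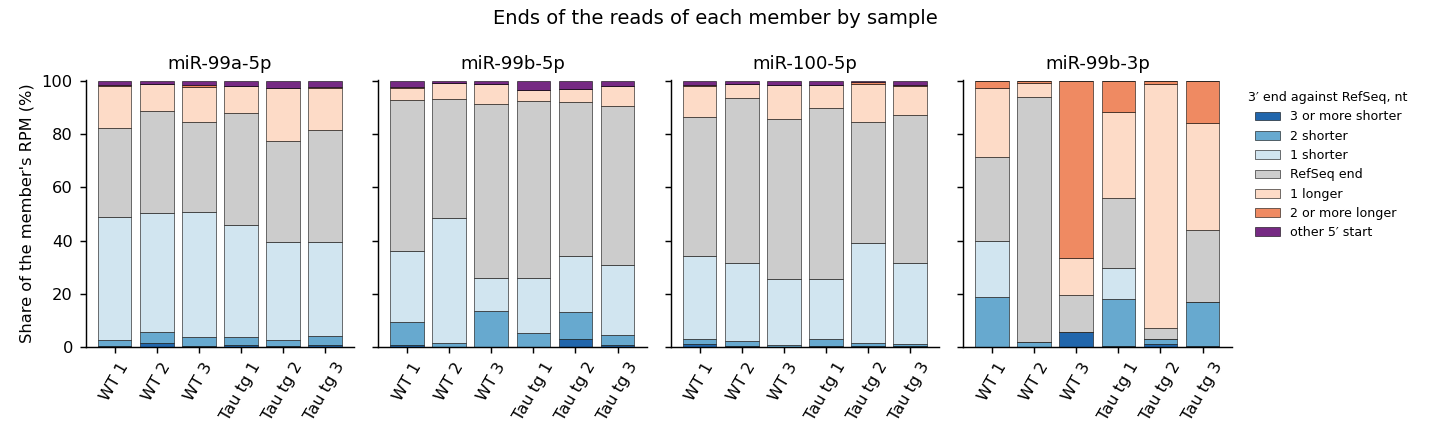
Share of each member's RPM by the 3′ end of its reads against the RefSeq end, in nt, for reads with the RefSeq 5′ start, with reads of another 5′ start on top, by sample. The blue classes of miR-99a-5p are smaller in the 3 Tau tg samples than in the 3 WT samples, and miR-99b-3p differs most from sample to sample.

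Reads with 1 base past the RefSeq end of miR-99a-5p mostly ended in A or U, although the hairpin has G there. The added A made 5.44% to 11.7% of the member and the added U 3.57% to 9.28%, while the G of the hairpin made 0.00716% to 0.714%. In miR-100-5p, whose hairpin has C there, the added A made 1.95% to 8.35%, the added U 3.03% to 6.13% and the C at most 0.239%. The added U of miR-99a-5p was highest in Tau tg 2 and the added A in Tau tg 3. The groups overlapped in the added A and in the added U of both members.

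miR-99b-3p had a different leading end in different samples, at few reads. The RefSeq form gave 92.4% of it in WT 2 (119 reads in all), and a form with 1 added U gave 86.9% in Tau tg 2 (99 reads in all). In WT 3 forms 2 or more bases longer gave 66.7% of its 36 reads. In WT 1 and Tau tg 1, with 230 and 787 reads, no class of ends exceeded 32.3%. The leading form changed from sample to sample within each group.

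The family's seed ACCCGU was among the most abundant, ranked 12 of 4051 6mer seeds by mean RPM. The members gave 99.0% of the RPM of this seed, over 128 sequences, and reads with no mature name gave 1.04%. Within miR-99a-5p the seed was kept by 97.3% to 98.8% of the RPM, within miR-100-5p by 98.1% to 99.3%. Its viability was 57.2, and that of the shifted seed CCCGUA was 79.7. The mean viability weighted by RPM was 57.4 to 57.5 for the family and 57.2 to 59.4 for whole samples. Leaving the family out moved the mean of a sample by -0.00604 to 0.0459.

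Single substitutions were counted in reads of at least 18 bases with the RefSeq 5′ start, over positions 1 to 16. The leading A1G reads of miR-99a-5p and the leading A3G read of miR-99b-3p, by mean RPM, are shown with the changed base in capitals:
miR-99a-5p A1G, 1 base short: Gacccguagauccgaucuugu
miR-99a-5p A1G, RefSeq end: Gacccguagauccgaucuugug
miR-99b-3p A3G, RefSeq end: caGgcucgugucuguggguccg

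In brain, ADAR enzymes turn adenosine in double-stranded RNA into inosine, which a sequencer reads as G. Whether these G bases came from editing was not tested. In miR-99a-5p 1 of the 48 possible substitutions stood out, A1G, with a mean share of 5.29% against 0.172% for the next, C5U, and a median of 0.0123%. This base lies before the seed, so the seed of these reads is that of the family.

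A1G made 3.69%, 3.21% and 5.13% of the counted miR-99a-5p reads in WT and 3.79%, 12.1% and 3.80% in Tau tg. The high sample was Tau tg 2, with 284 such reads and a 95% Wilson interval of 10.8% to 13.5%, above the upper limit of 5.52% in WT 3. On the RPM scale the A1G reads were at 554, 304 and 631 in WT, while the Tau tg samples held 611, 238 and 309. In Tau tg 2 they were at 0.429 times the median of the other samples, while reads with the unchanged first A were at 0.148 times. Wilson intervals cover counting error only, since reads without molecular identifiers are not independent molecules.

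First-base changes were rarer in most other miRNAs. Of 64 of these miRNAs with a RefSeq sequence that begins with A, miR-99a-5p had the highest share of A1G among its named reads, at a mean of 5.37%. The next was miR-296-5p at 0.833%, and the median of the other 63 was 0. Tau tg 2 was the high sample in the next 2 as well, with 3.33% of miR-296-5p against at most 1.04% elsewhere and 1.40% of miR-423-3p against at most 0.179%. In that sample miR-296-5p was thus above the 3.25% of named miR-99a-5p reads in WT 2. Both were scarce, with means of 115 and 149 RPM over the 6 samples. At 0.836 RPM to a read in Tau tg 2, their shares there rest on few reads. The median of the other 63 was 0 in Tau tg 2 as well. The part of that sample in the high share of miR-99a-5p was not tested. miR-100-5p, with the same first 15 bases as miR-99a-5p, was at 0.471%, 0.168% and 0.132% in WT and 0.230%, 0.239% and 0.138% in Tau tg.

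In miR-99b-3p A3G was the one substitution found, and it lies inside the seed. It changes the 6mer seed from AAGCUC, with a viability of 54.6, to AGGCUC, with a viability of 13.2. It made 14.8%, 0% and 0% of the counted reads in WT and 8.77%, 22.7% and 19.4% in Tau tg. Its read counts were 34, 0 and 0 in WT and 69, 29 and 37 in Tau tg. The 0 of 119 reads in WT 2 allows up to 3.13% and the 0 of 36 in WT 3 up to 9.64% (Wilson). By counting error alone WT 2 was below all 3 Tau tg samples, and WT 3 was not told from Tau tg 1. Here too reads are not independent molecules, so these limits are too narrow and do not compare the groups. The 29 reads of Tau tg 2 were a single sequence with another 3′ end, which the authors matched to the hairpin and gave no mature name. Groups overlapped, since WT 1 exceeded Tau tg 1.

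**Figure D5:**
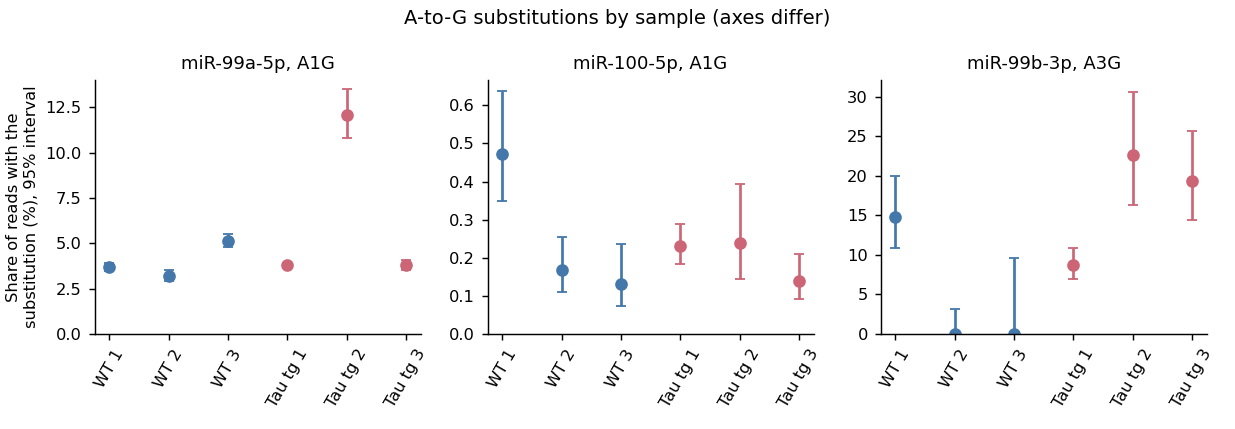
Share of reads with the named A-to-G substitution in miR-99a-5p, miR-100-5p and miR-99b-3p by sample (WT blue, Tau tg red), with 95% Wilson intervals. The axes start at 0 and differ between panels. A1G of miR-99a-5p reaches 12.1% in Tau tg 2 and stays at or below 5.13% elsewhere.

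Across the table, limma on log2(RPM + 1) passed 25 of 689 miRNAs, 3.63%, at an unadjusted p under 0.05, and 0 after adjustment, where DESeq2 passed 5 and edgeR 0. The levels chose the members, so no call on a member's level is given. Of 36070 sequences whose mean reached 1 RPM, 803 passed unadjusted, 2.23%, and 10 adjusted, 0.0277%. Of the 247 member sequences above 0, 139 had a mean that reached 1 RPM. The median log2 difference was -0.52 over the 71 such sequences of miR-99a-5p, -0.21 over the 42 of miR-100-5p and 0.13 over the 17 of miR-99b-5p. It was -0.16 over all 36070 sequences. Over all 689 miRNAs it was 0.25, so relative to the median miRNA the differences of miR-99a-5p and miR-100-5p lie further below 0.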

How the data were processed

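Ago-bound short RNAs of 3 WT and 3 Tau tg samples were taken from 1 table that the authors made with their SPOROS pipeline. Reads were trimmed (Trim Galore, per the submitters' processing notes), compiled into unique sequences, cleared of rare reads and of artificial sequences, and annotated with BLAST. The deposited values are RPM, which the authors normalized to the reads of each sample. Low values are incomplete, since rare reads had been removed. Each value was a whole multiple of 1 read (100% within 0.25 reads), and 1 read was worth 0.142 to 0.917 RPM. The authors' viability score of 6mer seeds, in percent, was used as deposited.

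RPM were summed by mature name, and reads were placed on the RefSeq mature sequence by the fewest mismatches over 16 bases. The 15 measures of read ends, lengths and ratios were compared by exact two-sided permutation over 20 assignments of the samples. Nothing was drawn from the p-values of the 3 ratios, which come from the levels but count in the adjustment over 15. The p-values of read ends and lengths are a description, since these measures come from sequences of the chosen members. Rows whose mean reached 1 RPM were fitted with limma 3.58.1 with trend on log2(RPM + 1), which understates changes of low rows. R 4.3.3, edgeR 4.0.16, DESeq2 1.42.0, SciPy 1.17.1, pandas 2.3.3, NumPy 2.4.6, Matplotlib 3.10.9 and Python 3.11.15 were used. limma and the placement were tested on simulated data.

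The members and lists were chosen with earlier results of these data known. Named were the members, their opposite strands, 11 cluster partners, for each member the 3 sequences with the highest mean and the leading one with another seed (the text gives those of the results it describes), and the 5 miRNAs most like miR-99a-5p. Substituted reads, the Tau tg 2 comparisons and the shares over 241 miRNAs were chosen after their values were seen. Added bases were compared with the hairpins of Mir99a and Mir100. Alternatives were other pseudocounts, filters, scalings and tools, leaving out each sample, and pairing by replicate number as a block.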

Additional observations from a re-analysis of the deposited data

How the results depend on the processing

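The differences between the groups in the levels of the members moved by less than 1 SD of the group that varied more under every alternative run, though leaving out 1 sample could move them by more than the SD of the other group. That of miR-99a-5p stayed below 0 in all 16, from -1.14 (quantile normalization) to -0.64 (edgeR), and from -1.57 to -0.06 when each sample was left out. That of miR-100-5p also stayed below 0, from -0.53 to -0.28, and from -0.62 to -0.06. The -0.06 of miR-99a-5p was without Tau tg 2, and that of miR-100-5p was without WT 2. Leaving out a sample gave miR-99b-5p -0.33 to 0.32 and miR-99b-3p -0.05 to 0.79, so each of these took both signs. All alternatives re-used the levels that chose the members, so a sign that was kept adds no support. The sum of the 5p arm, run under 9 alternatives, lay between -0.82 and -0.11. Median-of-ratios scaling moved the median of all 689 miRNAs from 0.25 to 0.09 and miR-99a-5p to -1.07.

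Of the 15 composition measures, 2 had groups without overlap. Keeping only sequences whose mean reached 10 RPM gave 1, leaving out each sample gave 3 to 5, and reads of 19 to 25 nt gave 2. By chance a measure has no overlap in 0.1 of the assignments of 3 against 3, so a few of 15 can arise without any difference. This happens more often with a sample left out, so those counts cannot be set against the 2. The measure lost under the 10 RPM filter was the shifted 5′ start of miR-99a-5p (exact permutation p of 0.5). Exact hairpin matches could be run for 7 measures, of miR-99a-5p and miR-100-5p, and gave 3 of these 7. With the samples paired by replicate number, 6 measures had all 3 pairs in 1 direction (smallest possible sign-flip p of 0.25). That is easier to reach by chance than groups without overlap, so this count cannot be set against the 2 either. The 3′ shortening of miR-99a-5p stayed between -10.1 and -6.83 percentage points throughout. Same-numbered samples did not deviate together (correlations of -0.00201, -0.0693 and 0.0413 over 689 miRNAs). With 3 samples in each group this cannot decide whether the numbers pair the samples, and the labels do not say what the numbers mean. The replicate block called 22 miRNAs unadjusted.

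Calls across the table depended on the settings. The 25 miRNAs became 24 to 58 when each sample was left out, and the 0 adjusted calls became 5 with DESeq2. The 803 unadjusted sequences became 429 with a pseudocount of 5, 167 with a mean of at least 10 RPM, 2565 with edgeR, 3344 with DESeq2 and 444 to 911 without 1 sample. The 10 adjusted calls became 16 and 0 with pseudocounts of 0.1 and 5, 4 without a filter, 0 with a mean of at least 10 RPM, 6 with quantile normalization, 1 without trend, 22 with the replicate block, 49 with edgeR, 459 with DESeq2 and 0 to 11 without 1 sample. The causes were not tested. Depth limits miR-99b-3p most, with 36 reads in WT 3.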

Other observations

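Reads that the authors matched to the hairpins of the family but gave no mature name were few for the 5p members. They came to 1.29% of the RPM of miR-99a-5p, over 67 sequences, 1.36% of that of miR-100-5p, over 57, and 1.01% of that of miR-99b-5p, over 28. For miR-99a-5p they were at 239.8, 110.5 and 169 RPM in WT and 190.5, 20.1 and 85.1 RPM in Tau tg. The low sample was again Tau tg 2, and WT 1 was the high one. For miR-99b-3p they were 1 sequence found in Tau tg 2 alone, at 24.3 RPM beside 82.8 RPM of the named strand, which is the A3G read described above.

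Among the 48 substitutions counted in miR-100-5p, U11C was at 0.503% of reads in WT 3 (42 reads) and at 0.22% or less in the other 5 samples. The change A2G, which gives the seed GCCCGU, was at 0.1% to 0.171% of miR-99a-5p and at 0.0795% to 0.126% of miR-100-5p. Unlike A1G, it was close to even over the samples and over both members.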
